A study of Arabidopsis thaliana with 2 samples.

Results

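The first 6 Mb of Arabidopsis thaliana chromosome 4 (TAIR10 build) hold the short arm, its heterochromatic knob and the sequence on either side of the centromere. All SNPs listed on chromosome 4 at positions 1 to 6000000 were taken, which gave 4969 of the 40612 positions in the list. Genomic DNA came from seedlings with the potent phenotype (1 sample) and from seedlings without it (1 sample). Both were progeny of the fifth cross of potent to Landsberg erecta (Ler), and both carry Ler as the labelled ecotype. The mutation is dominant and was kept heterozygous. It was induced with 50 mM ethyl methanesulfonate for 12 hours in a line with the reporters DR5::Luciferase, pWOX5::ER-YFP and pSCR::ER-GFP, and it was crossed 6 times to that parental line in Col-0 before the crosses to Ler. The title of the list describes homozygous SNPs and carries the letters MT, which the sources used here do not define; mutant is the design text's word for seedlings that show the potent phenotype. No column names a sample, so the list was assigned to neither phenotype, and it gives no allele or read depth. The 2 phenotypes were therefore not compared.

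Knobs are blocks of condensed, transposon-rich chromatin that lie outside the centromere. The knob of the chromosome 4 short arm is present in Col-0, where it is part of an inversion relative to Ler. Crossovers are scarce in pericentromeric heterochromatin and between inverted and standard chromosomes, so long blocks there tend to pass together through crosses. SNPs between the 2 accessions serve as the markers on which such a mapping cross relies.

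The span was described in 4 consecutive subregions. The distal short arm ran to 1.4 Mb, the knob interval from there to 2.6 Mb, the short-arm pericentromere to 4 Mb, a rounded position of the centromere, and the long-arm pericentromere to 6 Mb. Gene content fitted these labels in part. The knob interval held 163 protein-coding genes and 138 annotated pseudogenes, against 375 and 24 in the distal short arm. The gene-poor part of the knob interval was its 0.7 Mb between 1.6 and 2.3 Mb, with 54 protein-coding genes and 120 pseudogenes. Its first 0.2 Mb held 49 protein-coding genes and 7 pseudogenes, and its last 0.3 Mb held 60 and 11. Values given below for the knob cover the whole interval, gene-rich ends included, unless a part is named. In the short-arm pericentromere 68 protein-coding genes stood beside 238 pseudogenes, and in the long-arm pericentromere 161 beside 281.

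Listed SNPs were dense over most of these 6 Mb. The density was 828 per Mb (95% Poisson interval 805 to 852), against 183 per Mb (175 to 190) on the rest of chromosome 4 and 315 per Mb (312 to 319) over the list without this span. With 5.04% of the length covered by the list, the span held 12.2% of its SNPs. Chromosome 4 from 6 to 10 Mb carried 467 per Mb (446 to 489), so the span was 1.77 times as dense as its neighbour (95% interval of the ratio 1.68 to 1.87). These intervals cover counting error only. Listed SNPs are clumped and may be inherited in blocks, which was not tested. Window counts spread more widely than counting error, with a variance 17.8 times their mean.

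In consecutive windows of 100 kb the span held between 13 and 165 SNPs, with a median of 84. No window of the 60 was empty, whereas 77 of the 1128 windows of the rest of the list (6.83%) held 0. Over the rest of the list the median window held 20. The median of the span, which by definition splits its own windows evenly, was reached by 9.40% of the windows of the rest and 11.4% of all windows of the list. A window was called sparse under 20% of the median window of the span. The span had 2 sparse windows, with 13 and 14 SNPs, both between 4.4 and 4.6 Mb, whereas 43.6% of all windows of the list lay under the same limit of 16.8 SNPs. The window from 3.2 to 3.3 Mb, with 17, stood just outside it. No window passed 200% of the median, and 0.421% of all windows of the list did. The closest to that limit of 168 were those from 5.2 to 5.3 Mb, with 165, and from 1.2 to 1.3 Mb, with 155.

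**Figure D1:**
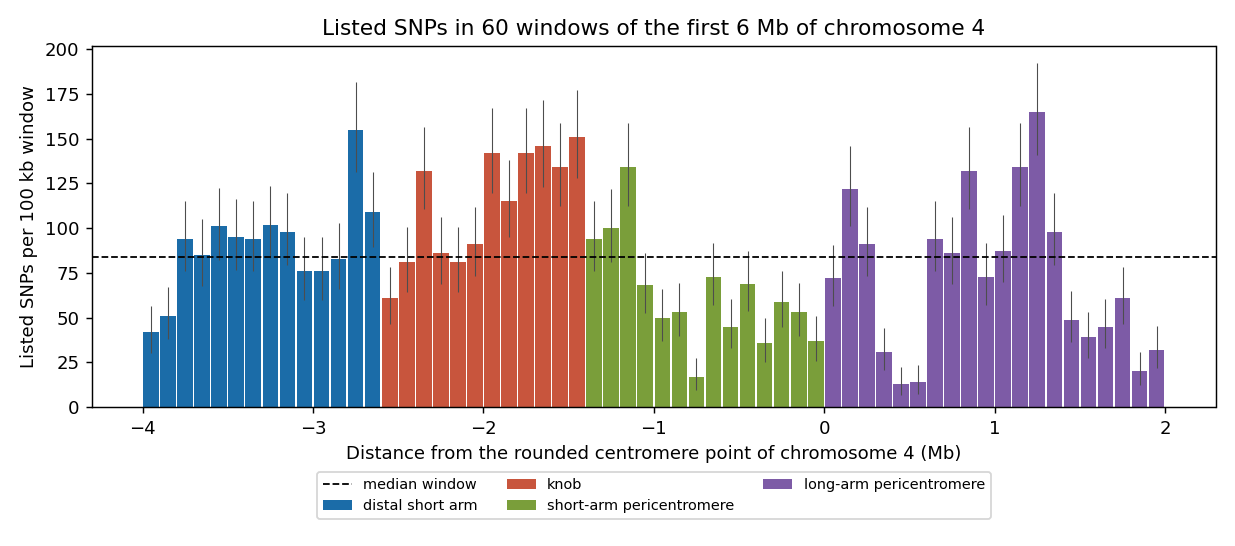
Listed SNPs (vertical axis, count per 100 kb window) along the first 6 Mb of chromosome 4, by distance from the rounded centromere point in Mb. Colours mark the 4 subregions, lines are 95% Poisson intervals and the dashed line is the median window of 84; the lowest windows, with 13 and 14 SNPs, lie on the long-arm side.

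The knob interval was the densest subregion. It carried 1135 SNPs per Mb (1076 to 1197), against 901 per Mb (852 to 952) in the distal short arm, a ratio of 1.26 (1.17 to 1.36). Without its thin first 0.2 Mb, the distal short arm carried 973 per Mb (918 to 1031). Every ratio to the distal short arm given here would be smaller against that value. Counted as 1 kb bins with at least 1 SNP, which limits the weight of clumps, 54.7% of the knob interval (exact binomial 95% interval 51.8 to 57.5) and 46.5% of the distal short arm (43.9 to 49.2) were occupied. Single windows of these subregions overlapped. Knob windows held 61 to 151 SNPs with a median of 123.5, and windows of the distal short arm held 42 to 155 with a median of 94.

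Density within the knob interval was uneven. From 2.0 to 2.6 Mb the interval carried 1383 SNPs per Mb (1291 to 1481), against 887 per Mb (813 to 965) from 1.4 to 2.0 Mb, a ratio of 1.56 (1.40 to 1.74). The interval of the part from 1.4 to 2.0 Mb overlapped that of the distal short arm. Its 6 windows held 61, 81, 132, 86, 81 and 91 SNPs, in order along the chromosome. Beyond 2.0 Mb the windows held 142, 115, 142, 146, 134 and 151, and each of these exceeded at least 5 of the 6 before them. The 3 windows past the limit at 2.6 Mb held 94, 100 and 134, all above the median window of the span. The positions 0.2, 1.6, 2.0, 2.3, 2.9, 4.4, 4.6 and 5.4 Mb, which limit parts of the subregions, were chosen after the values were seen.

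Gene-poor knob sequence was uneven in listed SNPs too. The part between 1.6 and 2.3 Mb carried 1127 per Mb (1050 to 1209), which was 1.25 times the distal short arm (1.14 to 1.37) and 1.78 times the short-arm pericentromere (1.61 to 1.96), whose annotation is also rich in pseudogenes. The excess over the distal short arm lay in its last 0.3 Mb. From 2.0 to 2.3 Mb it carried 1330 per Mb (1203 to 1467), 1.48 times the distal short arm (1.32 to 1.65). From 1.6 to 2.0 Mb it carried 975 per Mb (881 to 1077), 1.08 times the distal short arm, with an interval of the ratio from 0.964 to 1.21. The distal short arm from 0.2 to 1.4 Mb carried nearly the same, 973 per Mb. The gene-rich end of the interval, from 2.3 to 2.6 Mb, carried 1437 per Mb (1304 to 1579).

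**Figure D2:**
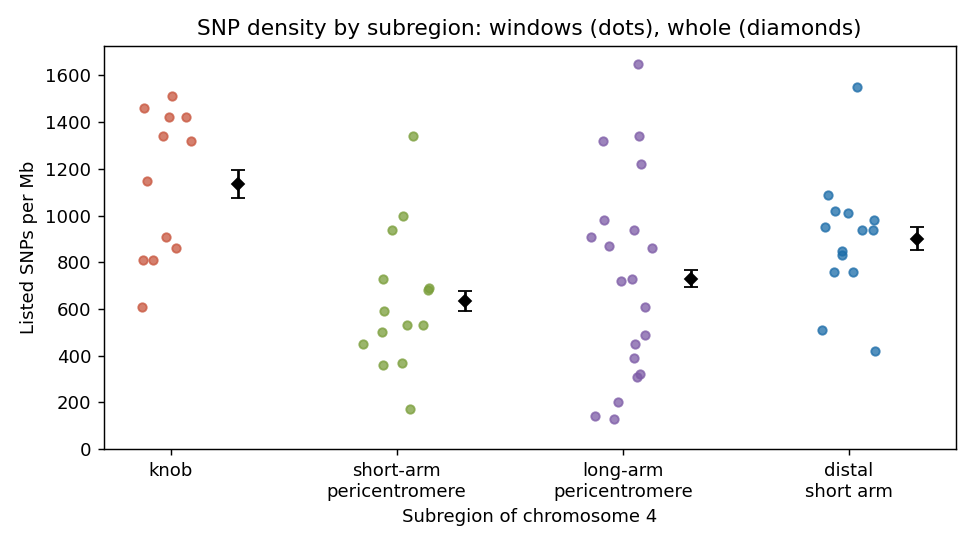
SNP density (vertical axis, listed SNPs per Mb) in the 4 subregions. Dots are the 100 kb windows, each count scaled to 1 Mb, and diamonds are whole subregions with 95% Poisson intervals; the knob stands highest at 1135 per Mb while its windows overlap those of every other subregion.

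SNPs were fewer around the centromere, though not scarce. Both pericentromeric sides together carried 690 per Mb (662 to 719), which was 0.766 times the distal short arm (0.715 to 0.821). The long-arm side carried 729 per Mb (692 to 767) and the short-arm side 634 per Mb (593 to 677). In occupied 1 kb bins the intervals of the sides overlapped: the long-arm side held 36.2% (34.0 to 38.3) and the short-arm side 37.1% (34.6 to 39.7). On the long-arm side more SNPs thus fell into each occupied bin, 2.02 against 1.71.

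Density was uneven on each side. On the short-arm side the windows before 2.9 Mb held 94, 100 and 134 SNPs. From 2.9 to 4.0 Mb the short-arm side carried 509 per Mb (468 to 553), and its 11 windows held 17 to 73 SNPs. On the long-arm side, 0.2 Mb from 4.4 to 4.6 Mb carried 135 per Mb (89.0 to 196), the lowest stretch of the span, with 27 SNPs among 4 protein-coding genes and 39 pseudogenes. The next 0.8 Mb, from 4.6 to 5.4 Mb, carried 1086 per Mb (1015 to 1161), 1.21 times the distal short arm (1.10 to 1.32). The last 0.6 Mb carried 410 per Mb (360 to 465), 0.377 times the stretch before it (0.326 to 0.435). Those 0.6 Mb held 91 protein-coding genes against 52 in the 0.8 Mb before them. The opposite end of the span was also thin: the first 0.2 Mb of the chromosome carried 465 per Mb (375 to 570).

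SNP counts did not follow gene content in a single way. Over the 60 windows the number of protein-coding genes and the number of SNPs had a Spearman rho of 0.36 and a Pearson r of 0.26, as a description across windows that share 1 list and lie next to each other. Within the short-arm pericentromere rho was 0.85 and r was 0.63 over 14 windows. Its windows beyond 2.8 Mb held only 0 to 6 protein-coding genes each. Within the knob rho was 0.05 over 12 windows, and within the long-arm pericentromere it was -0.04 over 20. In the distal short arm rho was 0.00 and r was -0.14 over 14 windows. For pseudogenes rho was -0.29 and r was -0.24 over the 60 windows. Counts of neighbouring windows went together, with a rho of 0.61 over 59 pairs.

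**Figure D3:**
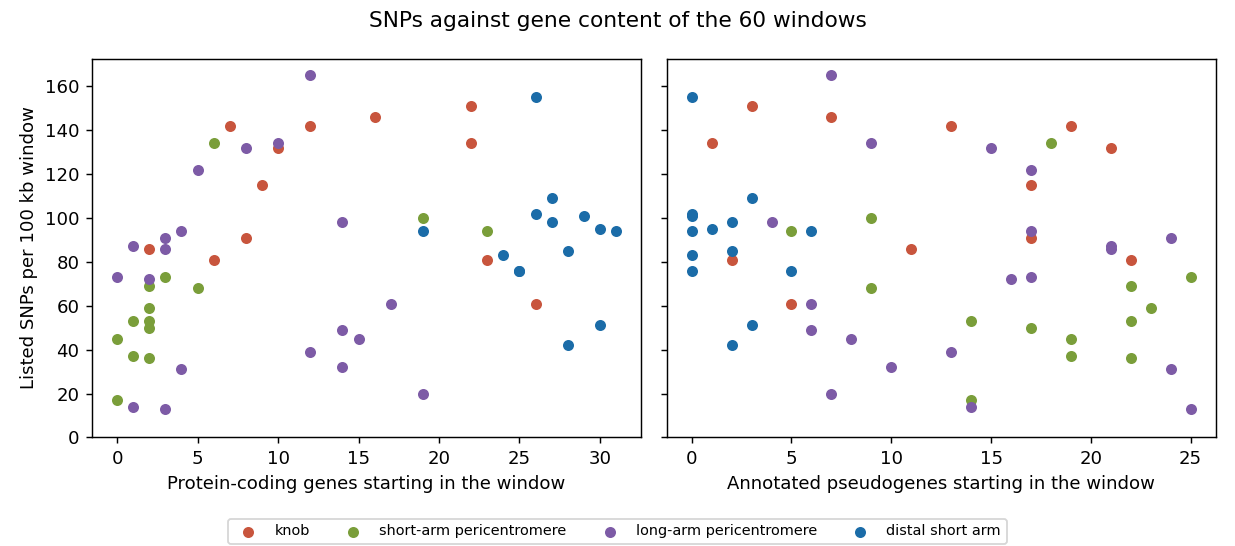
Listed SNPs per 100 kb window (vertical axes) against the protein-coding genes (left) and annotated pseudogenes (right) that start in the window, coloured by subregion. Windows of the distal short arm sit at 19 or more protein-coding genes, and the gene-rich windows of the short-arm pericentromere are those with 94 and 100 SNPs.

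Gaps of 20 kb or more between neighbouring SNPs were few. There were 16, or 2.67 per Mb, against 7.55 per Mb over the rest of the list, and they covered 9.14% of the span, against 41.04% of the rest. By subregion, 1 lay in the knob (20% of the length of the span) and 6 began on the short-arm side of the pericentromere (23.3%). A further 6 lay on the long-arm side (33.3%) and 3 lay in the distal short arm (23.3%). The rest of the list had 168 gaps longer than the longest of the span.

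That longest gap, 68.8 kb, ran from position 5854697 to 5923452 at the long-arm end, 1.85 Mb beyond the rounded centromere. It held 7 protein-coding genes, AT4G09190 to AT4G09310 in order, and 7 pseudogenes. FBH2, a bHLH transcription factor gene of the flowering pathway, lay before it, and NDPK1, a nucleoside diphosphate kinase gene, after it. The second gap, 48.2 kb from 3962607 to 4010847, spanned the rounded centromere point and held 5 pseudogenes and 0 protein-coding genes. The third gap, 45.4 kb from 958927 to 1004350, was different in kind. It lay in the gene-rich distal short arm and held 12 protein-coding genes and 0 pseudogenes. Among them were SUS3, a sucrose synthase, RSH1, a homologue of bacterial enzymes of guanosine tetraphosphate signalling, SYP42, a syntaxin of the trans-Golgi network, and AGL51, a MADS-box gene. On its sides lay AT4G02170 and the endoglucanase gene GH9B13. The fourth, 44.1 kb from 3221374 to 3265480, held 1 pseudogene between AT4G06490 and AT4G06526. The fifth, 38.3 kb from 4515470 to 4553771, lay in the sparse windows beyond the centromere and held AT4G07740 with 7 pseudogenes. In the knob the only such gap was 25.9 kb, from 1704319 to 1730208, and no annotated protein-coding gene or pseudogene lay whole inside it. As read depth is unknown, sites inside a gap that match the reference cannot be told apart from heterozygous or uncallable ones.

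Neighbouring SNPs lay close together. The median distance was 451.5 bp (95% interval 426 to 480) in the span and 740 bp (720 to 760) in the rest of the list. The knob had a median of 394 bp (352 to 435), the short-arm pericentromere 667 bp (558 to 760), the long-arm pericentromere 427 bp (357 to 476) and the distal short arm 443.5 bp (395 to 505). The interval of the short-arm pericentromere lay above those of the other subregions, which overlapped. These intervals treat distances as independent, though listed SNPs are clumped, so a difference between subregions was not tested. Medians also varied within subregions. In the short-arm pericentromere the part from 2.9 to 4.0 Mb had 896 bp. The long-arm part from 5.4 to 6.0 Mb had 986 bp, and the first 0.2 Mb of the chromosome 1094.5 bp. Of all distances in the span, 25.9% were 100 bp or less, against 21.1% in the rest of the list. The share was 27.1% in the knob, 20.2% in the short-arm pericentromere, 27.7% in the long-arm pericentromere and 26.7% in the distal short arm. Adjacent bases were both listed in 94 pairs, or 1.89% of distances, against 1.71% in the rest.

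Most clumps were small. Taking runs of SNPs whose neighbours lay within 100 bp, the span had 711 pairs, 212 runs of 3 or 4 and 21 runs of 5 or more. Runs of 2 or more held 44.9% of the SNPs of the span, against 36.9% in the rest of the list. Of the 21 runs of 5 or more, 6 lay in the knob, which held 27.4% of the SNPs of the span. Both runs of 8 or more lay outside the knob, and 2 runs are too few to compare with that share. The largest held 9 SNPs in 273 bp, from 1288400 to 1288672, inside the protein-coding gene AT4G02910. The other held 8 SNPs in 233 bp, from 4686169 to 4686401, outside every annotated gene between AT4G07835 and AT4G07868. The rest of the list had 5 runs of 8 or more. SNPs with no other listed SNP within 10 kb were rare, with 5 in the span (0.101%) against 699 in the rest (1.96%).

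The most crowded 200 bp of each subregion held 6 or 7 SNPs, against a median of 1 for a stretch starting at a SNP. In the knob it ran from 2569654 to 2569853, between FBS3 and AT4G05018, with 6 SNPs. In the short-arm pericentromere it ran from 2612584 to 2612783 with 6, in the long-arm pericentromere from 4686211 to 4686410 with 7, and in the distal short arm from 272689 to 272888 with 6, between AT4G00651 and the RNA helicase gene RH8. None of these 4 stretches overlapped an annotated gene, and 50.0% of all SNPs of the span lay outside every annotated gene. The stretches were picked for their counts and are too few to compare with that share. The largest run, with 9 SNPs, lay inside a gene.

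**Figure D4:**
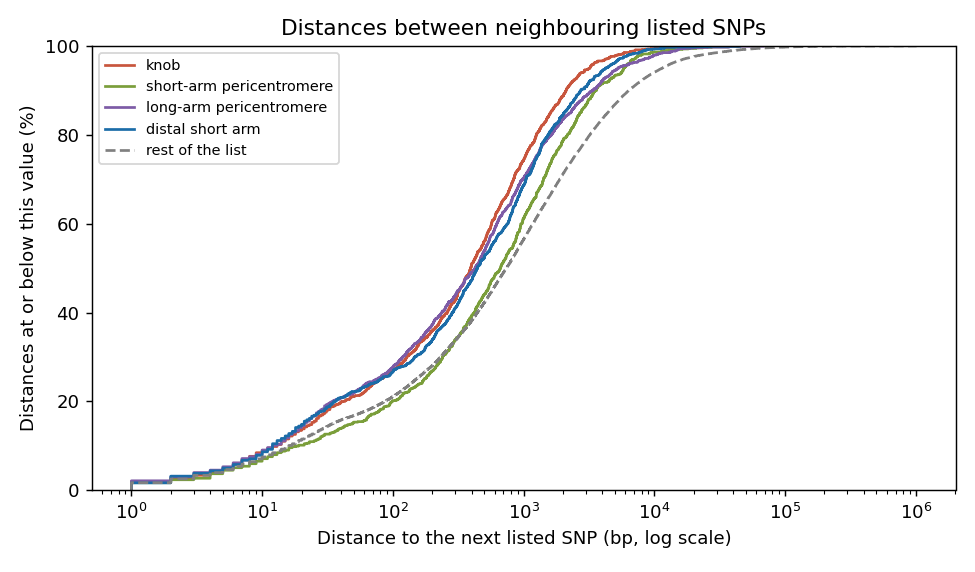
Cumulative share of distances between neighbouring listed SNPs (vertical axis, percent) by distance in bp on a log scale, for the 4 subregions and the rest of the list. The curve of the short-arm pericentromere runs right of the other 3 subregions, with a median of 667 bp.

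Inside protein-coding genes the span carried 813 SNPs per Mb (771 to 857), in pseudogenes 669 (629 to 712) and outside every annotated gene 924 (888 to 961). Protein-coding sequence here includes introns and untranslated regions. It took up 28.7% of the span and held 28.2% of its SNPs (26.9 to 29.5). The order of the classes differed between subregions. In the knob interval, protein-coding genes carried 988 per Mb (889 to 1094), pseudogenes 975 (867 to 1093) and sequence outside genes 1351 (1252 to 1457). Only 54 of its 163 protein-coding genes started in its gene-poor part, from 1.6 to 2.3 Mb. In the short-arm pericentromere protein-coding genes were the densest class, with 852 per Mb (699 to 1029) against 629 (571 to 691) outside genes. The windows of that subregion with the most protein-coding genes lay next to the knob. On the long-arm side protein-coding genes carried 603 per Mb (521 to 694) and sequence outside genes 844 (789 to 901), and in the distal short arm 811 (753 to 872) and 1085 (990 to 1186).

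**Figure D5:**
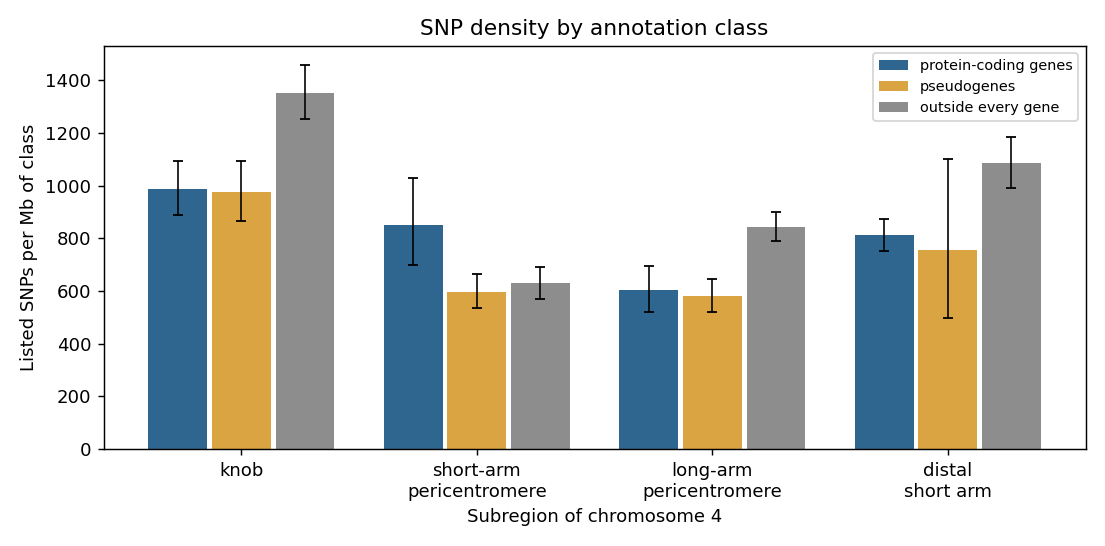
SNP density (vertical axis, listed SNPs per Mb of the class) in protein-coding genes, pseudogenes and sequence outside every annotated gene, by subregion. Lines are 95% Poisson intervals; protein-coding genes stand below sequence outside genes in 3 subregions and above it in the short-arm pericentromere, at 852 against 629 per Mb.

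Of 767 protein-coding genes that start in the span, 446 held at least 1 listed SNP, which is 58.1% (exact binomial 95% interval 54.6 to 61.7). The share was 28.3% (27.8 to 28.9) among protein-coding genes elsewhere and 29.2% over the whole list. It was 68.7% in the knob interval (60.99 to 75.7), 54.4% in the short-arm pericentromere (41.9 to 66.5), 49.1% in the long-arm pericentromere (41.1 to 57.1) and 58.1% in the distal short arm (53.0 to 63.2). Of the 163 genes of the knob interval, 54 started in its gene-poor part, so its share mostly describes the gene-rich ends. Longer genes held a SNP more often. Up to 1000 bp, 31.2% of the genes of the span did, against 13.8% of genes of that length elsewhere, and above 5000 bp, 82% did, against 44.1% elsewhere. Pseudogenes held a SNP in 332 of 681 cases, 48.8% (44.9 to 52.6), against 27.8% over the whole list. Of 16 microRNA genes 6 held a SNP, or 37.5% (15.2 to 64.6), against 4.52% of 310 elsewhere (2.49 to 7.46) and 6.13% over the whole list. The microRNA genes of the span were longer, with a median of 196.5 bp against 141 bp elsewhere. MIR841b and MIR5645b had 2 each, and MIR826a, MIR826b, MIR447b and MIR5645e had 1 each.

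Genes with the most listed SNPs were spread over all 4 subregions, with 3 of the first 10 in the knob interval. These 3 lay at its gene-rich end, from 2.3 to 2.6 Mb. Of them, GSL1, a callose synthase of the glucan synthase-like family, had 18 SNPs over 6349 bp, and AT4G04790 had 15. KEA3, a potassium efflux antiporter of the thylakoid membrane, had 14. PCN (POPCORN), on the long-arm side, had 15. ENT4, a nucleoside transporter, lay just past the knob interval and had 12 SNPs in 2733 bp, or 4.39 per kb. In the distal short arm PRL, which encodes the replication helicase subunit MCM7, had 13, MSH6, a mismatch repair protein, had 12, AT4G00520 had 12, and KEA2, an antiporter of the chloroplast envelope, and AT4G02540 had 11 each. PRL and MSH6 are neighbours. AT4G02715 and AT4G03040 tied with the last of these at 11.

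The genes examined by function held listed SNPs in 27 of 35 cases (77.1%), beside 58.1% of all protein-coding genes of the span. One of the 27, AOP2, is annotated as a transcribed pseudogene, a class that the 58.1% leaves out. The 35 had a median of 2 SNPs per gene, against 1 over all protein-coding genes of the span. They were also longer, with a median length of 3115 bp against 2050 bp, so the shares are not like for like. The 35 ranged from 852 to 7426 bp. Among all protein-coding genes of the span, 53.2% held a SNP between 1000 and 2000 bp and 66.2% between 2000 and 3000 bp. The share was 76% between 3000 and 5000 bp and 82% above. A share matched to the lengths of the 35 was not computed. Counts of the separate lists of these 35 genes are small and were not matched for length. No allele is given. A SNP in any of these genes may be a natural difference between Col-0 and Ler, and its effect on the gene is unknown.

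Among genes of auxin action, 5 of 7 held a SNP. ABP1, the endoplasmic reticulum auxin-binding protein, had 6 SNPs in 2006 bp. JLO (LBD30), a LOB-domain regulator of organ boundaries and auxin transport, had 2. CUL1, the scaffold of the ubiquitin ligases that degrade Aux/IAA repressors, DFL2, of the GH3 family, and AT4G00880 (SAUR31) had 1 each. GRH1, the auxin receptor also named AFB1, had 0, as did LBD31. GRH1 ended a run of 10 consecutive protein-coding genes without a SNP that straddled the start of the knob interval.

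Flowering and light genes held SNPs in 4 of 6 cases. EID1, an F-box protein of phytochrome A signalling, had 3, and GA1, which catalyses an early step of gibberellin synthesis, had 2. FRI, a flowering repressor for which Col-0 and Ler both carry loss-of-function alleles, and the blue light receptor gene CRY1 had 1 each. LD, a flowering regulator, and SWN, a Polycomb histone methyltransferase, had 0 over 5016 and 5408 bp. CRY1 was the only one of these outside the distal short arm.

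Developmental transcription factor genes held SNPs in 9 of 11 cases, with a median of 3. ATMYC1, a bHLH factor of epidermal cell fate, had 10. GBF2, a bZIP factor, had 4. YAB3 (leaf polarity), ANL2 (a homeodomain factor), KNAT1 (a KNOX factor of the shoot meristem), WRKY47 and WRKY42 had 3 each. PDF2, an epidermal homeodomain factor, and CPL3, a small MYB of trichome patterning, had 2 each, and NGA4 and WRKY22 had 0.

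All 3 genes of the AOP cluster, which controls glucosinolate side chains and varies between accessions, held SNPs: AOP3 had 5, AOP2, annotated as a transcribed pseudogene in Col-0, had 3, and AOP1 had 2. The 3 replication and repair genes did too, with DDB1A at 3 beside PRL and MSH6. Of 5 genes of signalling and general function, MPK4, a MAP kinase of immunity, had 7, BSL1, a phosphatase of brassinosteroid signalling, had 3, UBQ10, a polyubiquitin gene, had 1, and BSK3 and ABCI8 had 0. Genes named CRK, for cysteine-rich receptor-like kinases, held SNPs in 7 of 7 cases, with a median length of 2859 bp. Beside them, 66.2% of all protein-coding genes of the span between 2000 and 3000 bp held a SNP. In the knob, where 5 of the 7 lie, the share was 68.7% over protein-coding genes of all lengths. A share matched for both length and place was not computed. The CRK set was taken by symbol after the values were seen, and its members share sequence, so reads may have been placed on the wrong copy. In the knob, CRK37 had 7, CRK40 had 6, CRK36 and CRK38 had 3 each and CRK39 had 1. CRK25 had 1 in the short-arm pericentromere, and CRK41 had 6 in the distal short arm.

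Genes with and without SNPs lay in runs. The longest run with SNPs was 22 consecutive protein-coding genes over 112 kb at the end of the knob interval, from AT4G04880 to NDB2, and it included PDF2 and GSL1. The longest run without SNPs was 13 genes over 40.9 kb in the distal short arm, from AT4G02170 to SUS3, and 12 of its genes lay inside the 45.4 kb gap described above. The next was 12 genes over 75.01 kb near the long-arm end, from AT4G09340 to AT4G09464, which included MYB6 and NdhT, a subunit of the chloroplast NADH dehydrogenase-like complex. The longest genes without a listed SNP were MEE44, at 7714 bp, and TOC159, a receptor of the chloroplast protein import machinery. These runs and longest genes were chosen after their values were seen.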

How the data were processed

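The authors deposited a list of chromosome numbers and SNP positions (other fields were not present), made with SNPtrack according to the series' design text and on the TAIR10 build, per the submitters' processing notes. How reads were aligned, filtered and called homozygous is not stated in those sources. Sequencing depth is unknown. In the position columns 5 cells held no readable number and were left out.

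Densities were counted from the deposited positions with exact Poisson intervals, ratios with exact conditional binomial intervals and shares with exact binomial (Clopper-Pearson) intervals, all at 95% and covering counting error only. Median distances carry 95% order-statistic (binomial) intervals, which treat the distances as independent. Gene names and limits came from RefSeq TAIR10.1, whose nuclear chromosomes are those of TAIR10. No gene coordinates are printed. Gene limits were moved as a check, in steps of 1000 bp up to 5000 bp either way: unshifted, 28.2% of the SNPs of the span fell in protein-coding genes, the lowest of 11 placements. All 35 loci of the lists were found. Keyword lists for resistance, ankyrin, F-box and transposon genes were not used, because the annotation table has no product names. Members, lists and subregions were chosen with earlier results of these data known. Genes were named where they belonged to a list, ranked among the 10 with the most SNPs, or lay at the 5 longest gaps or at the most crowded stretches. Genes outside that rule are marked as chosen later, with some exceptions. The microRNA genes, AT4G02910 and the tied genes AT4G02715 and AT4G03040 were also named after their values were seen. Scripts were tested on simulated data. Python 3.11.15, numpy 2.4.6, scipy 1.17.1 and pandas 2.3.3 were used.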

Additional observations from a re-analysis of the deposited data

How the results depend on the processing

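No paired analysis was possible because there is 1 sample per phenotype and 1 list, which names no sample. Keeping at most 1 SNP per 1 kb bin gave 425 per Mb for the span and a median distance of 1402 bp, by construction. With the knob from 1.2 to 2.8 Mb and the distal short arm cut at 1.2 Mb the ratio was 1.37; the wider knob carried 1138 per Mb, close to 1135, and the shorter distal arm 831 per Mb, against 901. Split after the values were seen, it gave 1.54 from 2.0 to 2.6 Mb but 0.984 from 1.4 to 2.0 Mb, so the excess rested on the second part. The pericentromere from 3 to 5 Mb gave 0.677. Sparse windows numbered 1 in windows shifted by 50 kb, 6 of 120 at 50 kb, 1 at 200 kb, 9 under 50% of the median and 0 under 10%. Without isolated SNPs the longest gap moved to the short-arm pericentromere, from 3194006 to 3265480 (71474 bp). The other alternatives stayed within the intervals, or for sparse windows within 1.5 times the count. Denominators without unresolved bases and counts in coding sequence alone were not run, because no genome sequence or exon limits were used here.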
